A study of Rattus norvegicus with 39 samples.

Results

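Cerebral cortex was compared between 3 groups of 28-month-old rats that all ate a restricted diet from 12 months on, but had different diets before. The comparison used 9 of the 39 RNA-seq libraries in the series, chosen by their labels alone. In the first group rats had been on calorie restriction (CR) since 2 months of age and never changed diet (28 m CR, pools 16, 17 and 18). In the second they were fed ad libitum (AL) until 12 months and were then restricted (28 m AL>CR, pools 19, 20 and 21). In the third they were fed AL with lipoic acid (LA) at 1.5 g per kg of diet until 12 months and were then restricted (28 m AL+LA>CR, pools 22, 23 and 24). All were male BN rats of the substrain BN/SsNOlaHSD that had eaten the plain diet ad libitum until 2 months, and restricted rats received 55% of the daily intake of controls. Each pool joined RNA from the cerebral cortex of 2 rats, so each group had 3 pools. The question is whether an AL or AL+LA start leaves a trace in the cortical transcriptome at 28 months, when all groups have eaten alike since 12 months.

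Calorie restriction lowers food intake without malnutrition and extends lifespan in many laboratory animals. In brain it is known for its effects on stress resistance, synaptic genes and glial activation. Lipoic acid is a sulphur-containing fatty acid that is bound covalently to a few mitochondrial enzyme complexes as a cofactor, and taken as a supplement it acts on cellular redox balance.

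Between 3288677 and 5614861 reads per library fell on genes, and 17230 of the 26123 genes listed had at least 1 CPM (a count scaled to library size) in at least 3 of the 39 libraries and were tested. The 3 groups were compared with edgeR's quasi-likelihood test, and a gene was called when its p-value, adjusted by the Benjamini-Hochberg method over all genes tested, was under 0.05. Symbols were available for 1673 of the genes tested. They came from the lists of genes that the study itself reported, so named genes are richer in responsive genes than the rest, and the unnamed genes are described here by counts. CPM values are scaled by TMM factors. The labels name 2 rats in each pool but do not say that pools were otherwise processed independently, so p-values measure the spread between pools.

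Of the 17230 genes, 1 was called in the 3-group test (0.0058%), the albumin gene Alb. At an unadjusted p under 0.05 there were 498 genes (2.89%). The number of genes per step of 0.05 in p rose from 498 in the lowest step to 1053 in the highest. The same test on the 9 libraries taken at 12 months, when the rats still ate their different diets, gave 581 called genes (3.37%) and 2711 at an unadjusted p under 0.05 (15.7%), and there the number per step fell from 2711 to 602.

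**Figure D1:**
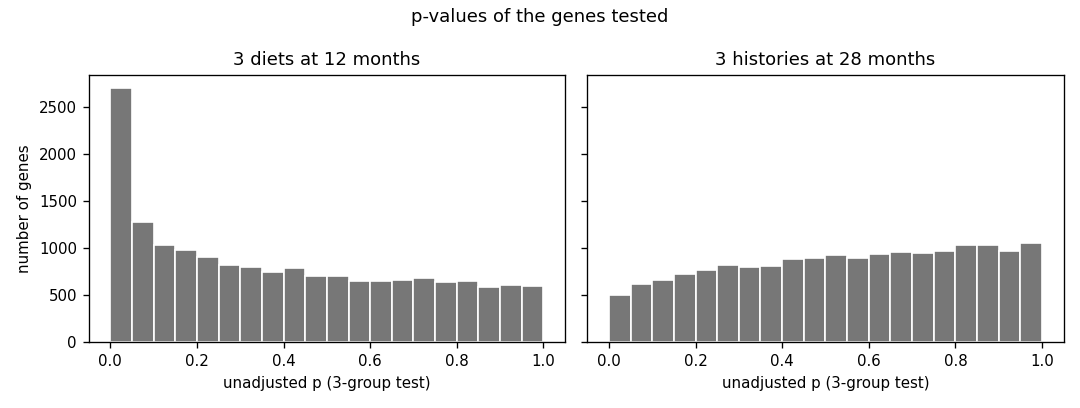
Number of genes (y axis) in each step of 0.05 of the unadjusted p-value (x axis) for the 3 histories at 28 months and the 3 diets at 12 months, each with 9 libraries. The lowest step holds 498 genes at 28 months and 2711 at 12 months.

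Each pair of groups gave a similar picture. In AL>CR relative to CR, 0 genes were called by edgeR and 408 had an unadjusted p under 0.05 (2.37%), 173 of them higher (1%) and 235 lower (1.36%) in AL>CR. In AL+LA>CR relative to CR, 0 genes were called by edgeR and 676 had an unadjusted p under 0.05 (3.92%), 274 higher (1.59%) and 402 lower (2.33%). In AL+LA>CR relative to AL>CR, Alb was the 1 called gene (0.0058%) and 601 had an unadjusted p under 0.05 (3.49%), 277 higher (1.61%) and 324 lower (1.88%). The first 2 pairs share the CR pools and their values are not independent. The exact test in edgeR, run on the 6 libraries of each pair alone, called 1, 2 and 2 genes in these pairs: an unnamed gene, ENSRNOG00000011672, with 96.4% of its reads in pool 20, then Alb and Cd74, and then Alb and the unnamed gene. Pools of the groups did not overlap for 657 genes higher and 659 lower in AL>CR than in CR (3.81% and 3.82%). The corresponding counts were 726 and 712 (4.21% and 4.13%) for AL+LA>CR against CR, and 731 and 742 (4.24% and 4.31%) for AL+LA>CR against AL>CR.

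The precision of these comparisons depended on how strongly a gene was expressed. Among the 9748 genes with a mean of at least 10 CPM, the median half-width of the 95% interval of the log2 difference was 0.34 in each pair, and the interval lay wholly within 1 log2 unit of no change for 99.07% of genes in AL>CR against CR, 98.53% in AL+LA>CR against CR and 98.65% in AL+LA>CR against AL>CR. Within 0.5 log2 units lay 63.12%, 60.24% and 59.53%. For genes under 10 CPM the median half-width was 1.02, 0.99 and 1.02, and the interval lay within 1 log2 unit for 27.55%, 28.8% and 26.82% of them. Pearson's r of log2 CPM across genes, which are not independent replicates, was between 0.953 and 0.9653 (median 0.9573) for 9 pairs of the same history and between 0.9495 and 0.9681 (median 0.9611) for 27 pairs of different histories, given as a description.

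The 28S ribosomal RNA gene Rn28s, which a ribosomal depletion step is meant to remove, was at 31320, 30450 and 34000 CPM in the CR pools, at 26300, 32560 and 28020 CPM in the AL>CR pools, and at 3920, 17590 and 37220 CPM in the AL+LA>CR pools. Thus 2 of the 3 AL+LA>CR libraries lay below all others and the third above them. Over 19 quantities of the libraries, the smallest p of an exact permutation test over all 1680 assignments of the 9 libraries (one-sided, on the F ratio) was 0.225, for Rn28s, with a smallest adjusted p of 0.906; the smallest p that the design allows is 0.00357. Without AL+LA>CR pool 24 the exact permutation p for Rn28s was 0.0107. The share of reads not aligned was between 38.13% and 40.98% in the CR and AL>CR libraries and between 34.08% and 40.39% in the AL+LA>CR libraries. The cerebellar granule cell gene Gabra6, chosen after its values were seen, was at 9.87 CPM in pool 19 and 32.5 CPM in pool 24. It was at most 0.97 CPM in the other 7 libraries. The summed CPM of 9 cerebellum markers, Gabra6 among them, overlapped between groups (exact permutation p = 0.957). It was 475 to 602 in CR, 533 to 617 in AL>CR and 462 to 678 in AL+LA>CR. In each switched group 5 of the 9 were higher and 4 lower than in CR. In AL+LA>CR 2 of the 9, Gabra6 and Fat2, had an unadjusted p under 0.05 in edgeR, against 3.92% of all genes. In AL>CR 0 of the 9 did, and 0 were called in the 3-group test. Fat2, a granule cell cadherin chosen after its values were seen, had 46.6% of its reads in pool 24. Its log2 difference from CR was 1.70 in AL+LA>CR and 0.13 in AL>CR. The summed CPM was 602 in CR pool 16, where Gabra6 was at most 0.97 CPM, so it says little about these 2 genes. Of the markers of cortical glutamatergic neurons, 2 of 13 had a symbol here: Neurod6 was present at 53.0 to 77.8 CPM and Fezf2 at 5.33 to 14.7 CPM in the 9 libraries.

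**Figure D2:**
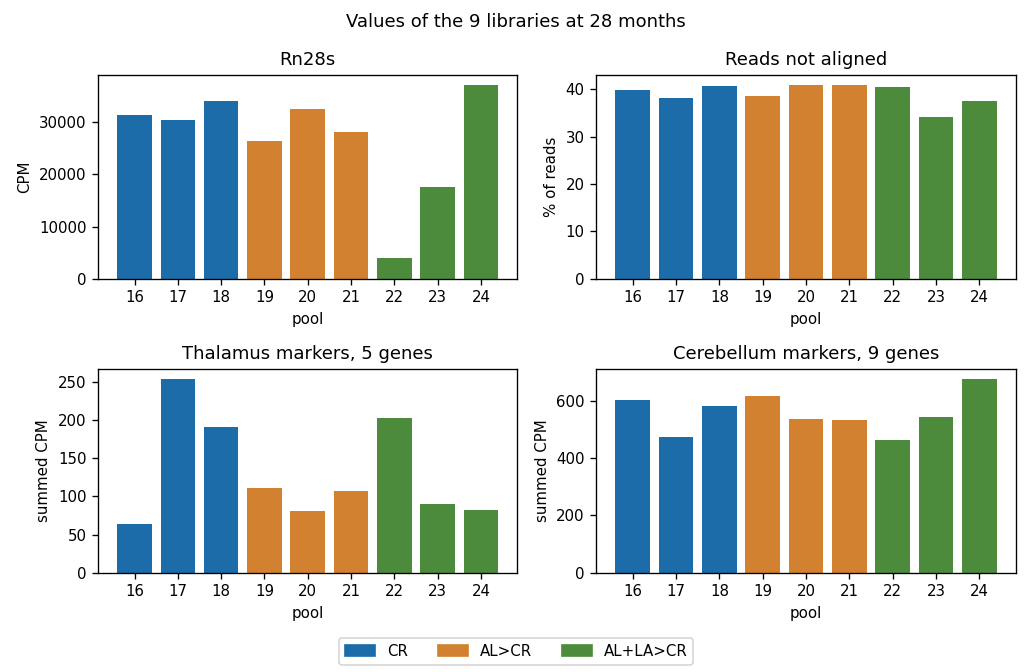
Values of the 9 libraries at 28 months by pool (x axis): CPM of Rn28s, percent of reads not aligned, and the summed CPM of 5 thalamus and 9 cerebellum markers (y axes), coloured by group. Rn28s is 3920 and 17590 CPM in pools 22 and 23 and at least 26300 CPM in the other 7.

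Alb encodes serum albumin, the main protein of blood plasma, which is made mostly in liver. It was at 12.8, 14.3 and 15.3 CPM in the CR pools, at 8.61, 5.07 and 9.59 CPM in the AL>CR pools and at 48.2, 15.9 and 63.2 CPM in the AL+LA>CR pools. The AL>CR pools lay below all CR pools, and the AL+LA>CR pools above all others, with pool 23 close to the highest CR pool. The log2 difference between AL+LA>CR and AL>CR was 2.47 (SE 0.34, 95% interval 1.76 to 3.18, edgeR adjusted p = 0.00413), and the adjusted p of the 3-group test was 0.00617. Against CR the log2 difference was 1.56 for AL+LA>CR (adjusted p = 0.356) and -0.91 for AL>CR (adjusted p = 1). Without pool 23 the pair of AL+LA>CR and CR was called (log2 difference 1.96, adjusted p = 6.37e-05), as it was by edgeR's exact test (adjusted p = 0.00853). The call of the 3-group test and of AL+LA>CR against AL>CR rested on few libraries. Without AL>CR pool 20 the edgeR adjusted p was 0.0518 in the 3-group test and 0.128 for the pair. Without AL+LA>CR pool 22 it was 0.109 in the 3-group test and 0.0359 for the pair. DESeq2 gave an adjusted p of 0.135 in its 3-group test and 0.049 for the pair. In the 12-month libraries Alb was at 127, 164 and 11.6 CPM in CR, 6.58, 8.14 and 27.9 CPM in AL and 12.3, 25.4 and 275 CPM in AL+LA, so that the diets overlapped. When all 13 groups shared the estimate of spread the adjusted p was 1. The haemoglobin genes Hba-a2 and Hba2, which red blood cells carry, had another order: Hba-a2 was at 154, 175 and 108 CPM in CR, 159, 184 and 170 CPM in AL>CR and 137, 149 and 141 CPM in AL+LA>CR, and neither gene was called.

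**Figure D3:**
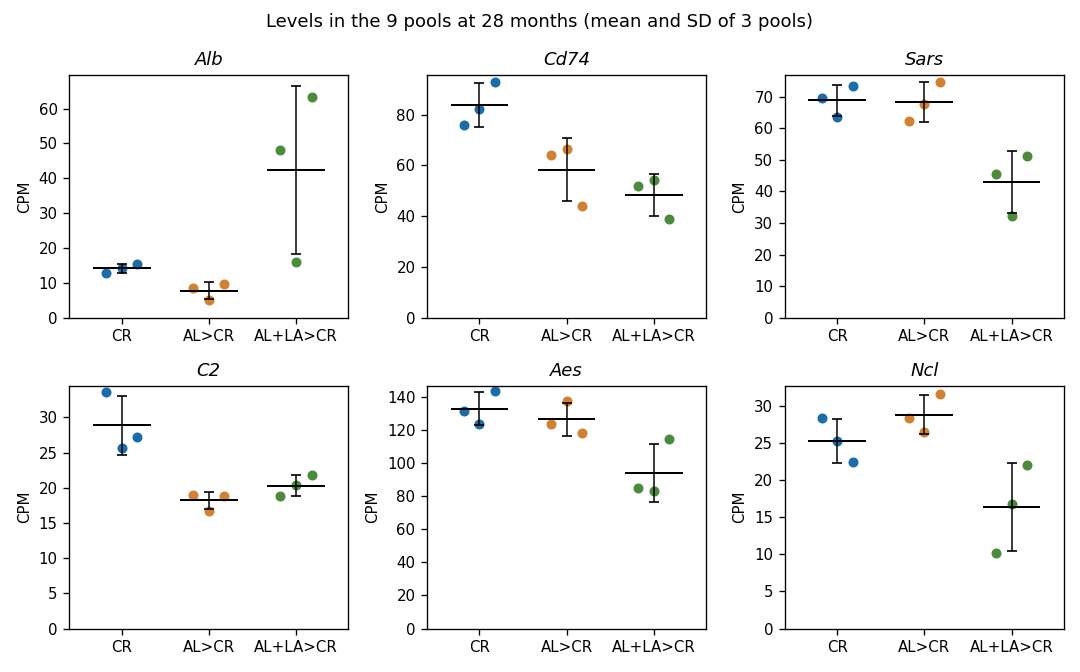
CPM (y axis, from 0) of Alb and of 5 other named genes, Cd74, Sars, C2, Aes and Ncl, by group at 28 months. These 5 had small p-values in the 3-group test but were not called with the filter on low counts. Rplp1, with a smaller p-value than Ncl in that test, is not shown. Points are pools, bars the mean and SD of 3 pools. Alb is 48.2, 15.9 and 63.2 CPM in the AL+LA>CR pools and at most 15.3 CPM in the other groups.

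With the filter on low counts, edgeR's quasi-likelihood test did not call the other 9 of the 10 named genes with the smallest p-values. This held in the 3-group comparison and in each pair, and their values are given as a description. Without that filter the same test called Cd74 and Sars in the 3-group comparison (adjusted p = 5.94e-05 and 0.000597). It then also called Cd74, Sars and Ttyh2 in AL+LA>CR against CR, and Sars, Rplp1 and Ncl in AL+LA>CR against AL>CR. Cd74, the invariant chain of MHC class II, was at 75.8, 82.2 and 93.0 CPM in CR, 64.3, 66.6 and 44.1 CPM in AL>CR and 51.8, 54.4 and 38.9 CPM in AL+LA>CR. All pools of both switched groups lay below all CR pools, with log2 differences from CR of -0.52 (95% interval -0.84 to -0.20) and -0.79 (-1.11 to -0.47), and an edgeR adjusted p of 0.618 in the 3-group test. Cd74 was called in AL+LA>CR against CR by edgeR's exact test on the 6 libraries of that pair (adjusted p = 0.00853). Sars, the cytoplasmic seryl-tRNA synthetase, was at 69.8, 63.5 and 73.3 CPM in CR, 62.3, 67.7 and 74.8 CPM in AL>CR and 45.5, 32.3 and 51.3 CPM in AL+LA>CR. Its AL+LA>CR pools were the 3 lowest, and the log2 difference from CR was -0.69 (-1.003 to -0.38, adjusted p = 0.644 in the 3-group test).

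C2, a complement component of the classical pathway, was at 33.7, 25.7 and 27.3 CPM in CR, 18.98, 16.8 and 18.9 CPM in AL>CR, and 18.8, 20.4 and 21.8 CPM in AL+LA>CR. Again the CR pools were the highest. Aes, a corepressor of the Groucho family, was at 132, 124 and 144 CPM in CR, 124, 138 and 119 CPM in AL>CR and 85.3, 83.2 and 115 CPM in AL+LA>CR. Ncl, which encodes the nucleolar protein nucleolin, was at 28.4, 25.2 and 22.4 CPM in CR, 28.4, 26.5 and 31.7 CPM in AL>CR and 10.2, 16.8 and 22.04 CPM in AL+LA>CR. In both of these the AL+LA>CR pools were the lowest. Rplp1, an acidic protein of the ribosomal stalk, was at 407, 248 and 333 CPM in CR, 219, 226 and 274 CPM in AL>CR and 401, 360 and 316 CPM in AL+LA>CR, with the AL>CR pools below all AL+LA>CR pools. The log2 differences of Bccip, Ttyh2 and Sdf4 from CR were -0.76, -0.92 and -0.44 in AL+LA>CR and -0.09, -0.51 and 0.05 in AL>CR. The adjusted p of the 3-group test was 1 for C2, Aes, Rplp1, Ncl, Bccip, Ttyh2 and Sdf4.

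MHC class II molecules present peptides to helper T cells and are carried in brain mainly by microglia and by perivascular cells. Of 10 genes listed, 5 were tested. All 5 were lower in AL>CR than in CR (median log2 difference -0.54, against -0.01 over all genes), each with an unadjusted p under 0.05 where 1.36% of all genes were lower at that level, and 0 of 5 were called by edgeR. In AL+LA>CR the median was -0.23, with all 5 lower and 1, Cd74, at an unadjusted p under 0.05. Over all genes with a symbol, 962 of 1673 were lower than in CR in AL>CR and 848 in AL+LA>CR. RT1-Da, a class II chain, was at 48.5, 35.9 and 55.1 CPM in CR, 38.98, 32.6 and 22.7 CPM in AL>CR and 48.7, 44.6 and 23.5 CPM in AL+LA>CR. The pools of RT1-Da overlapped between the groups. RT1-Bb was at 25.7, 20.4 and 23.8 CPM in CR, 14.2, 19.4 and 13.1 CPM in AL>CR and 25.1, 24.4 and 8.99 CPM in AL+LA>CR. Its AL>CR pools lay below all CR pools. The microglial gene C1qc, chosen after its values were seen, was at 22.1, 27.2 and 28.0 CPM in CR, 14.2, 14.3 and 21.4 CPM in AL>CR and 18.1, 13.8 and 24.4 CPM in AL+LA>CR. Fewer cells of a type and less RNA per cell cannot be told apart in bulk tissue. The summed CPM of 5 of 12 microglial markers was 295 to 351 in CR, 300 to 309 in AL>CR and 251 to 347 in AL+LA>CR, and the part of microglial content was not tested.

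At 12 months the same 5 genes were higher in AL than in CR by a median log2 difference of 2.38, and all 5 were called in that pair. In AL+LA they were higher by a median of 1.23, with 0 of 5 called. Cd74 was at 20.7, 16.1 and 29.6 CPM in 12 m CR, 101, 144 and 110 CPM in 12 m AL and 12.3, 89.1 and 35.6 CPM in 12 m AL+LA. The AL pools were all above the CR pools, while 1 AL+LA pool carried most of that group's signal. At 28 months the order of AL>CR and CR was the reverse of the order of AL and CR at 12 months, and the test of diet by age called all 5 genes (adjusted p from 0.00723 for Cd74 to 0.0436 for RT1-Db1). Without 28 m AL>CR pool 21, 4 of the 5 were not called by edgeR (adjusted p from 0.0888 to 0.124) and Cd74 was (0.0339), and other single libraries also ended calls of these 4.

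**Figure D4:**
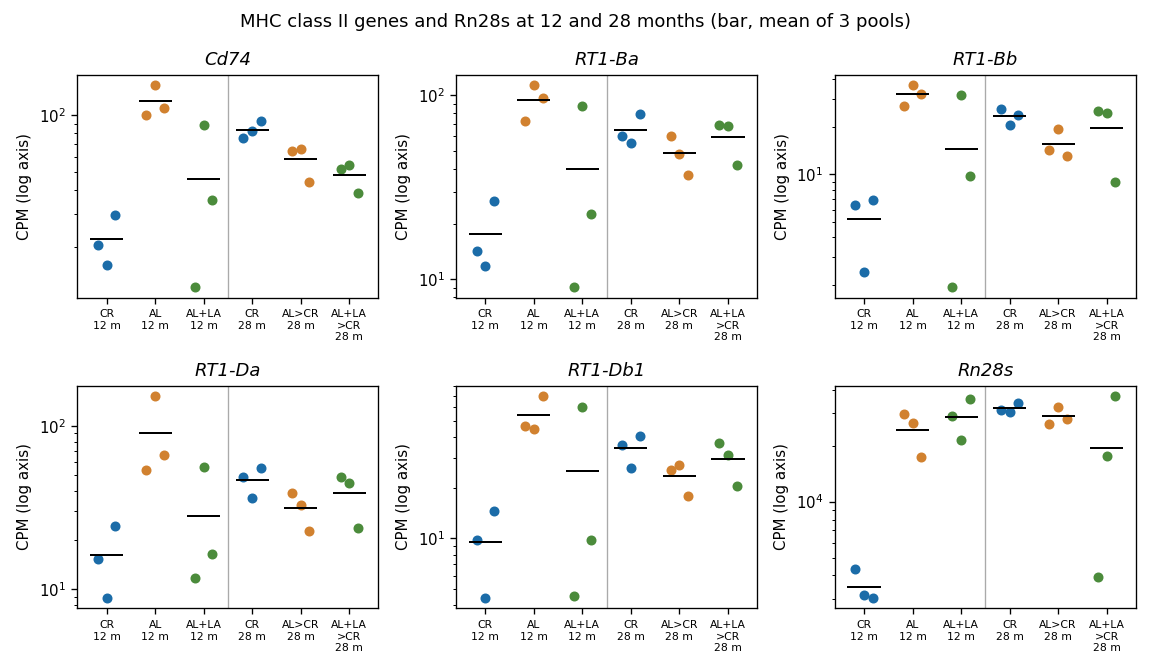
CPM on a log axis of the 5 MHC class II genes and of Rn28s in the 3 diets at 12 months and the 3 histories at 28 months; points are pools, bars the mean of 3 pools. Cd74 is 101 to 144 CPM in 12 m AL, 16.1 to 29.6 CPM in 12 m CR and 44.1 to 66.6 CPM in 28 m AL>CR.

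Lipoate-related genes had few symbols, so the lists could be read only in part. Bola3, which helps deliver iron-sulphur clusters for lipoate synthesis, was the 1 gene tested of 10, at 15.02, 14.8 and 16.2 CPM in CR, 19.2, 13.9 and 16.6 CPM in AL>CR and 18.3, 21.7 and 13.3 CPM in AL+LA>CR. Its pools overlapped. Amt, of the glycine cleavage system, and Pdp1, the phosphatase that activates pyruvate dehydrogenase, were the 2 tested of 20. Their log2 differences between AL+LA>CR and CR were 0.17 (95% interval -0.29 to 0.63) and -0.13 (-0.40 to 0.14).

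The glutathione, thioredoxin and NRF2 list, genes of cellular redox balance that are not all enzymes, had 13 of 36 genes tested. In AL+LA>CR 11 of 13 were higher than in AL>CR (median log2 difference 0.17, against 0.01 over all genes). In AL>CR 12 of 13 were lower than in CR (median -0.12). Over all genes with a symbol, 940 of 1673 were higher in the first pair and 962 lower in the second. These pairs share the AL>CR pools. No gene of the list was called, and 1 had an unadjusted p under 0.05 in the 3-group test, Gstt3, a theta class glutathione transferase. Gstt3 was at 50.4, 50.2 and 42.4 CPM in CR, 40.2, 45.6 and 32.9 CPM in AL>CR and 54.7, 50.8 and 52.8 CPM in AL+LA>CR. The AL+LA>CR pools were the highest 3 of 9. Gpx1, Gstp1 and Txnip had log2 differences between AL+LA>CR and AL>CR of 0.33, 0.27 and 0.22.

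In insulin, IGF and TOR signalling, 6 of 43 genes were tested and 0 called. Rheb, the small GTPase that activates TOR complex 1, was at 38.8, 58.9 and 42.6 CPM in CR, 50.9, 45.4 and 38.4 CPM in AL>CR and 53.2, 64.1 and 61.8 CPM in AL+LA>CR. Its AL+LA>CR pools lay above all AL>CR pools and overlapped the CR pools. Pdpk1, Igfbp4 and Pik3r1 differed from CR by 0.20, 0.42 and -0.10 on the log2 scale in AL+LA>CR. Of fatty acid oxidation and ketone use, 2 of 23 genes were tested and 0 called, and the monocarboxylate transporter Slc16a7 had a log2 difference between AL+LA>CR and CR of 0.25. Sterol and isoprenoid synthesis had 7 of 27 tested, with a median log2 difference of 0.07 in both pairs against CR. Hmgcs1, an early enzyme of the pathway, was at 437, 422 and 409 CPM in CR, 462, 449 and 458 CPM in AL>CR and 411, 459 and 460 CPM in AL+LA>CR. Insig1, Msmo1 and Fdft1 differed from CR by 0.07, 0.15 and -0.08 in AL>CR.

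The circadian clock list had 8 of 22 tested. In AL+LA>CR 6 of 8 were lower than in CR (median -0.19), as were 848 of all 1673 genes with a symbol. Bhlhe41, a repressor of clock gene transcription, was at 15.02, 19.6 and 21.3 CPM in CR, 15.7, 14.99 and 14.1 CPM in AL>CR and 14.3, 11.9 and 11.0 CPM in AL+LA>CR. The AL+LA>CR pools lay below all CR pools, with an unadjusted p of 0.0259 and an adjusted p of 1 in edgeR's 3-group test. Rora, Dbp and Per3 differed from CR by -0.32, -0.21 and -0.17 in AL+LA>CR. Genes induced by neuronal activity had 12 of 28 tested. Egr3, an immediate early transcription factor, was at 13.8, 7.51 and 8.90 CPM in CR, 7.85, 7.27 and 3.52 CPM in AL>CR and 9.68, 11.3 and 7.83 CPM in AL+LA>CR. Dusp14, Dusp6 and Nr4a2 differed from CR by 0.50, 0.23 and 0.28 in AL+LA>CR.

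Of the glucocorticoid-responsive genes 5 were tested, and all 5 were higher in AL+LA>CR than in AL>CR (median 0.23, 1 at an unadjusted p under 0.05). Over all genes with a symbol, 940 of 1673 were higher in this pair. The cell cycle inhibitor Cdkn1a and the metallothionein MT1 differed by 0.54 and 0.41 between these groups, Sult1a1 by 0.20 and the gap junction gene Gjb6 by 0.05. Heat shock and chaperone genes had 7 of 26 tested, under 8 identifiers. Hspa1b, an inducible HSP70 gene, was at 6.78, 4.12 and 6.00 CPM in CR, 5.32, 6.83 and 2.24 CPM in AL>CR and 2.69, 3.397 and 3.19 CPM in AL+LA>CR, all 3 below every CR pool. Cryab, Stip1 and Hsph1 differed from CR by -0.05, -0.20 and -0.03 in AL+LA>CR.

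Acetylation enzymes had 6 of 33 genes tested, with Hdac5, Kat6a and Morf4l1 at log2 differences of -0.23, 0.03 and 0.15 between AL+LA>CR and CR. Glutamate receptors had 7 of 24 tested. GRIN3A, an NMDA receptor subunit, and Grik4, a kainate receptor subunit, had log2 differences from CR of 0.31 and -0.33 in AL>CR. Neuropeptides and neurotrophins had 9 of 30 tested, under 10 identifiers. Npy, a peptide of inhibitory interneurons, was at 19.6, 16.97 and 25.5 CPM in CR, 17.5, 24.7 and 18.9 CPM in AL>CR and 23.1, 29.5 and 20.9 CPM in AL+LA>CR. Pcsk1n, Penk and Cck differed from CR by -0.27, 0.04 and 0.18 in AL+LA>CR. In each of these lists 0 genes were called by edgeR at 28 months. At 12 months the test of the 3 diets called 5 of the 10 neuropeptide identifiers, 3 of the 8 heat shock identifiers, 3 of the 6 acetylation genes, 2 of the 13 glutathione genes, 2 of the 7 sterol genes and 2 of the 7 glutamate receptors. It called 1 each of 8 clock, 12 activity, 6 insulin and 5 glucocorticoid genes, and 0 of the lipoate and fatty acid genes. Over all genes with a symbol it called 303 of 1673. No mitochondrially encoded gene had a symbol here, and that list was not analysed.

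Thalamic marker genes were chosen for description after their values were seen, and 5 of 8 listed were tested. All 5 had negative log2 differences from CR in both switched groups. In AL>CR 4 of the 5 had an unadjusted p under 0.05, against 2.37% of all genes (median log2 difference -0.87, 0 called). In AL+LA>CR 0 of the 5 did (median -0.57). The summed CPM of the markers was 64.4 in CR pool 16 but 255 and 191 in pools 17 and 18. It was 112, 80.9 and 107 in AL>CR and 203, 90.5 and 81.5 in AL+LA>CR, so that CR pool 16 lay below every switched pool. An exact permutation test of this sum over groups gave p = 0.65. Slc17a6, a glutamate transporter of thalamic neurons, was at 7.03, 99.4 and 62.1 CPM in CR, 30.9, 23.4 and 31.7 CPM in AL>CR and 50.5, 22.1 and 25.5 CPM in AL+LA>CR, so that CR held both the lowest and the highest pools. Without CR pool 16 it was called in edgeR's 3-group test (adjusted p = 0.03).

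The 581 genes called among the 3 diets at 12 months were then followed in the 28-month libraries. At 12 months these were other rats, 3 pools per diet. AL and CR differed in 486 genes (2.82%), 301 higher (1.75%) and 185 lower (1.07%) in AL, and AL+LA and CR in 31 (0.18%). Of these 31, 26 followed the level of Rn28s across libraries (absolute correlation of at least 0.8), with Rn28s itself counted among the 26. Rn28s was at 4320, 3124 and 3016 CPM in 12 m CR, 29610, 26510 and 17310 CPM in 12 m AL and 28900, 21620 and 35650 CPM in 12 m AL+LA, so that its level moved with diet at 12 months. Pools 5 and 6 of 12 m AL also held more reads of cerebellar genes than the pools of the other diets, while pool 4 did not. The summed CPM of 9 cerebellum markers was 604, 1304 and 3140 in pools 4, 5 and 6. It was 617, 608 and 514 in 12 m CR and 543, 586 and 682 in 12 m AL+LA. Fat2, a granule cell cadherin, was at 2.74, 134 and 721 CPM in 12 m AL. Fat2 was chosen after its values were seen. Pool 5 of 12 m AL had 494091 reads on genes. Reads not aligned were 30.43%, 36.13% and 34.35% in 12 m AL, 41.14%, 41.13% and 43.16% in 12 m CR and 39.3%, 41.01% and 39.36% in 12 m AL+LA. All AL pools lay below all pools of the other diets, and the part of this difference in the calls was not tested. With Rn28s as a covariate, AL and CR differed in 38 genes at 12 months, while the count for the 3 diets was 795. All CR pools were below all AL and AL+LA pools in Rn28s, so that this covariate and the contrast with CR cannot be told apart. With the cerebellum markers as a covariate, AL and CR differed in 222 genes.

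Of these 581 genes, 42 (7.23%, against 2.89% of all genes) had an unadjusted p under 0.05 at 28 months and 0 were called. Their median absolute log2 difference was 0.93 between AL and CR at 12 months, by which they were chosen, and 0.12 between AL>CR and CR at 28 months, where all genes had 0.31 and 0.14. For LA it was 0.23 between AL+LA and CR at 12 months and 0.14 between AL+LA>CR and CR at 28 months, where all genes had 0.19 and 0.16. The 95% interval at 28 months lay within 1 log2 unit of no change for 508 genes in AL>CR and for 496 in AL+LA>CR. The sign of the difference was shared between ages for 202 (34.8%, against 46.3% of all genes) in the AL comparison.

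**Figure D5:**
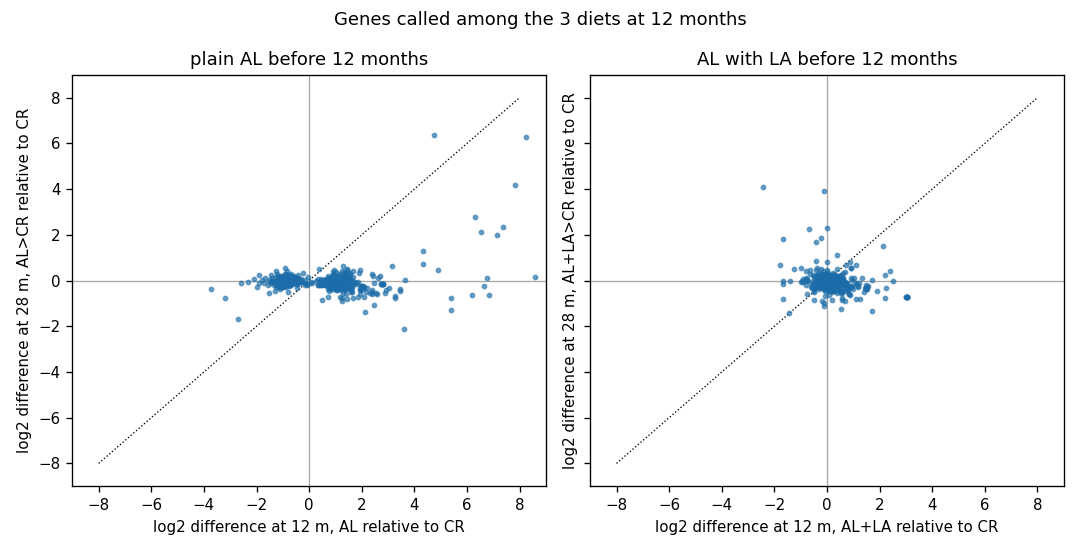
Log2 difference at 28 months against log2 difference at 12 months for the 581 genes called among the 3 diets at 12 months, for plain AL (left) and AL with LA (right), each relative to CR of its age; the dotted line marks equal values. The points lie along the horizontal axis on the left, where the median absolute difference is 0.93 at 12 months and 0.12 at 28 months.

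The genes with the smallest adjusted p at 12 months were Rn28s and 7 unnamed genes that carried reads in proportion to it. Among named genes chosen after their values were seen, Gfap, the intermediate filament protein of astrocytes, was at 246, 226 and 315 CPM in 12 m CR, 620, 578 and 701 CPM in 12 m AL and 332, 439 and 372 CPM in 12 m AL+LA. At 28 months it was at 390, 696 and 484 CPM in CR, 535, 522 and 469 CPM in AL>CR and 637, 491 and 565 CPM in AL+LA>CR, and the log2 difference between AL>CR and CR was -0.05 (95% interval -0.37 to 0.27). Fth1, the ferritin heavy chain that stores iron, differed between AL and CR by 1.03 at 12 months and by -0.01 (-0.24 to 0.22) between AL>CR and CR at 28 months. Camk2n1, an inhibitor of the calcium/calmodulin kinase CaMKII, differed by -1.10 at 12 months and by 0.10 (-0.21 to 0.40) at 28 months. In all 3 the groups overlapped at 28 months.

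A test of the interaction of diet history with age called 228 of 17230 genes (1.32%), 214 of them among the 581. Both tests use the same 9 libraries at 12 months, so that this overlap is partly built in and is given as a description. The count fell to 10 when the groups fed plain AL were left out, and was 138 with Rn28s as a covariate and 88 with the cerebellum markers as a covariate. Without 28 m AL>CR pool 21 it was 43 and without 12 m AL pool 4 it was 450. Age, the rats and the diet eaten at sampling all differed between the 12-month and 28-month groups and cannot be told apart.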

How the data were processed

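Cortical RNA of male BN rats had an RNA integrity number above 8, was pooled from 2 rats, depleted of ribosomal RNA and sequenced on the SOLiD 5500xl. Per the labels and the study's methods, the authors aligned reads with Bowtie to rn5 and deposited raw HTSeq counts per Ensembl gene. Lines that name no gene (5 per file) were left out. Counts were tested with edgeR 4.0.16 in R 4.3.3 (TMM, quasi-likelihood), with separate fits for the 9 libraries at 28 months, the 9 at 12 months and the 18 of the interaction. Genes with at least 1 CPM in 3 of 39 libraries were kept. DESeq2 1.42.0 was an alternative. Intervals were 95%. Strand was not given in the sources used here, so overlapping and antisense genes cannot be told apart. Named genes were those with the smallest p-values (10), called pairs, up to 4 per gene list, all of the lipoate and MHC class II lists, and the 8 smallest adjusted p at 12 months. Some genes that this rule names are not reported here. Members and lists were chosen with earlier results of these data known. Scripts were tested on simulated data.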

Additional observations from a re-analysis of the deposited data

Results flagged for a closer look

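The test of diet history by age called 228 genes, of which 21 are named here, each because its difference between starting diets was not the same at 12 and 28 months by that test. The edgeR adjusted p was 0.000841 for Rn28s, 0.00278 for Fth1, 0.00505 for Camk2n1, 0.00723 for Cd74, 0.00929 for Gfap, 0.00973 for Rora, Sars and Fat2, 0.0107 for Sdf4, and 0.0123 for Aes. It was 0.0176 for Hmgcs1, 0.0205 for RPL38, 0.0216 for RT1-Da, 0.0297 for RT1-Ba, 0.0305 for Gabra6, 0.0344 for RT1-Bb and Shank1, 0.0362 for Ncl, 0.0436 for RT1-Db1, 0.0471 for Penk and 0.0479 for Hspa1b. With the plain AL groups left out, 19 of these 21 calls were lost. With 1 library left out at a time, 14 of the 21 were lost at least once, with highest adjusted p from 0.0502 for Fat2 and Gfap to 0.569 for Gabra6 without AL+LA>CR pool 24, and 7 were kept each time: Rn28s, Fth1, Camk2n1, Cd74, Sars, Sdf4 and Aes. RPL38 and Shank1 were chosen after their values were seen.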

How the results depend on the processing

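No paired analysis was possible because pool numbers are unique to each library. Of 2015 values for 63 genes under the alternatives, 1840 kept their side of the threshold and, where a direction was compared, their direction. Another 155 lost a call, 11 gained one and 9 changed sign. Values of the interaction and of the 3-group test have no direction and were compared by side of the threshold alone. A value that was not called at first could not lose a call, so the total is no measure of robustness. The 3-group count of 1 became 49 without a filter on low counts, and 0 with DESeq2 and with all 13 groups in one fit. It was 2 with Rn28s as a covariate and with Rn28s and its followers left out, and 3 without pools 19 and 24. Pools 22 and 23 were also left out together, which left pool 24 as the only AL+LA>CR library, so counts of calls are not given for that fit. Both of these pairs of pools were chosen after seeing the data. For AL>CR against CR the count of 0 became 20 without the filter and 1 by the exact test or without pools 19 and 24. For AL+LA>CR against CR, 0 became 36 without the filter, and 2 by the exact test or without pools 19 and 24. For AL+LA>CR against AL>CR, 1 became 30 without the filter, 0 with all 13 groups, and 2 by the exact test. AL+LA>CR against the mean of the other groups, a contrast added after seeing the data, called 1 gene. It called 36 without the filter, 0 with all 13 groups, and 5 without pools 19 and 24. At 12 months the 581 became 1218 without the filter, 1011 with all 13 groups, 242 with the cerebellum covariate and 795 with the Rn28s covariate. In the same order the 486 became 995, 857, 222 and 38. The 31 became 68 without the filter, 10 with all 13 groups or the Rn28s covariate, and 3 without the followers. The 228 became 699 without the filter, 395 with DESeq2, 138 and 88 with the covariates, and 10 without plain AL. Leaving out each replicate in turn gave 0 to 3 (3 groups), 0 to 1, 0 to 2 and 0 to 3 (pairs), 1 to 7 (against the mean), 370 to 797, 136 to 832 and 13 to 37 (12 months), and 43 to 450 (interaction); exact permutation p-values ranged from 0.0107 to 0.729 for Rn28s, 0.0536 to 0.686 for reads not aligned and 0.543 to 0.989 for cerebellum markers. Without pools 22 and 23, where AL+LA>CR was pool 24 alone, signs changed in AL+LA>CR against CR for 5 genes. These were Bola3 (-0.21), Insig1 (-0.000867), Pcsk1n (0.12), Cck (-0.13) and Rn28s (0.22). In the same pair signs changed for Pcsk1n (0.026) with the Rn28s covariate and for Pdp1 (0.033 without CR pool 18, from -0.23 over the pools left out). At 12 months they changed for RPL38 (0.25) and Shank1 (-1.50) with the Rn28s covariate. The cause was not tested. Intervals were wider for genes under 10 CPM.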
